A study of Homo sapiens with 24 samples.

Results

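ZNF20 is a KRAB zinc finger protein (KZFP), and the peaks of its ChIP-seq library are described here. The members were all peaks of the deposited ZNF20 list with a MACS score above 80, the score being minus log10 of the peak p-value times 10. There were 91 such peaks among 257 deposited ZNF20 peaks, out of 31721 peaks above 80 in the 22 lists of the series. Scores of the 91 peaks ran from 80.21 to 433.5 with a median of 110.5, and their widths from 123 to 4687 bp with a median of 387 bp. The peaks nearest to the threshold had scores of 79.34 below it and 80.21 above it.

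The series maps the binding sites of 21 KZFPs, each from 1 library made in HEK293T, a transformed human kidney cell line. The cells were transduced with a doxycycline-inducible vector for the KZFP with a C-terminal HA tag, selected with puromycin at 1 µg/ml, induced with doxycycline at 1 µg/ml, and their chromatin was precipitated with an anti-HA antibody. The HEK293T control library, labelled 293Tctrl, gave 163 deposited peaks, of which 4 had a score above 80. Its record lists the same puromycin, doxycycline and amount of antibody (15 µg) as that of ZNF20, and both list formaldehyde at 1%. There is 1 library for each protein and 1 control library, so no difference has a replicate error or a test, and the protein is overexpressed with a tag. Shares are given with exact Clopper-Pearson 95% intervals, which cover counting error only. The lists hold no read numbers, so the depth behind each peak is unknown.

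KZFPs carry a KRAB domain, which in many of them binds the corepressor KAP1, and an array of C2H2 zinc fingers that read DNA sequence. KAP1 recruits the histone methyltransferase SETDB1 and HP1 proteins and so can place repressive chromatin at the bound site. Many KZFPs bind transposable elements, which are present in many diverged copies, so that bound and unbound copies of 1 element can be compared base by base.

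Most ZNF20 peaks lay on copies of 1 repeated sequence. Of the 91 peaks, 74 matched another ZNF20 peak over at least 100 bp, and the matched peaks had a median of 59 such partners. The peaks with most partners lay in introns of RFC3, which encodes a subunit of the DNA clamp loader (chr13:34442707-34443065, 64 partners, score 114.92), of STAG2, a cohesin subunit (chrX:123123611-123124177, 64 partners, score 100.99), and of STXBP4, a syntaxin-binding protein (chr17:53057646-53058185, 63 partners, score 284.25). The RFC3 peak was taken as the reference copy. Matches to hg19 around it began and ended sharply, at chr13:34442440-34443006, which defines a repeat unit of 567 bp. At least 50 and up to 1239 genome matches covered each base of the unit, against 1 match at 20 bp outside either end. No name of a repeat family was assigned here.

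The part of the reference copy where the peaks lay is printed first, since the base comparisons below refer to it. It holds positions 301 to 567 of the unit, counted from 1 at its first base on the plus strand. The capitals mark positions 398 to 411.

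RFC3 intron, chr13:34442740-34443006: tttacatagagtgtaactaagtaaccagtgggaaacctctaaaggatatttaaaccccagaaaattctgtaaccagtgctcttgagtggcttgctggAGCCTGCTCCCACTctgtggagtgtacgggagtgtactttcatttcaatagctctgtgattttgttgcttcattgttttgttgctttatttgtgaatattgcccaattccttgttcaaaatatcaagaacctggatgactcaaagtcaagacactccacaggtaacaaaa

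The share of peaks on a copy was higher in each score class above 80 than in those below, and the control had none. Copies were regions of hg19 that matched the reference peak over at least 100 bp. The reference was picked among the peaks above 80 for its matches to them, so their shares are a description. ZNF20 peaks lay on a copy in 17 of 130 cases with a score of 50 to 60 (13.1%, 95% interval 7.81 to 20.1%) and in 10 of 36 with a score of 60 to 80 (27.8%, 14.2 to 45.2%). Above the threshold it was 22 of 34 with a score of 80 to 100 (64.7%, 46.5 to 80.3%), 28 of 37 with 100 to 150 (75.7%, 58.8 to 88.2%) and 15 of 20 above 150 (75%, 50.9 to 91.3%). The intervals of the 3 classes above 80 overlapped, and so did those of the 2 classes below it. In the HEK293T control, 0 of 163 deposited peaks lay on a copy, with an upper limit of 2.24%. Over the other 20 KZFPs, 5 of 63806 deposited peaks did, from 2 libraries. Of these 20 libraries, 15 were ChIP-exo, a different assay from the ChIP-seq of ZNF20, and ZNF251 alone gave 31655 of the peaks.

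**Figure D1:**
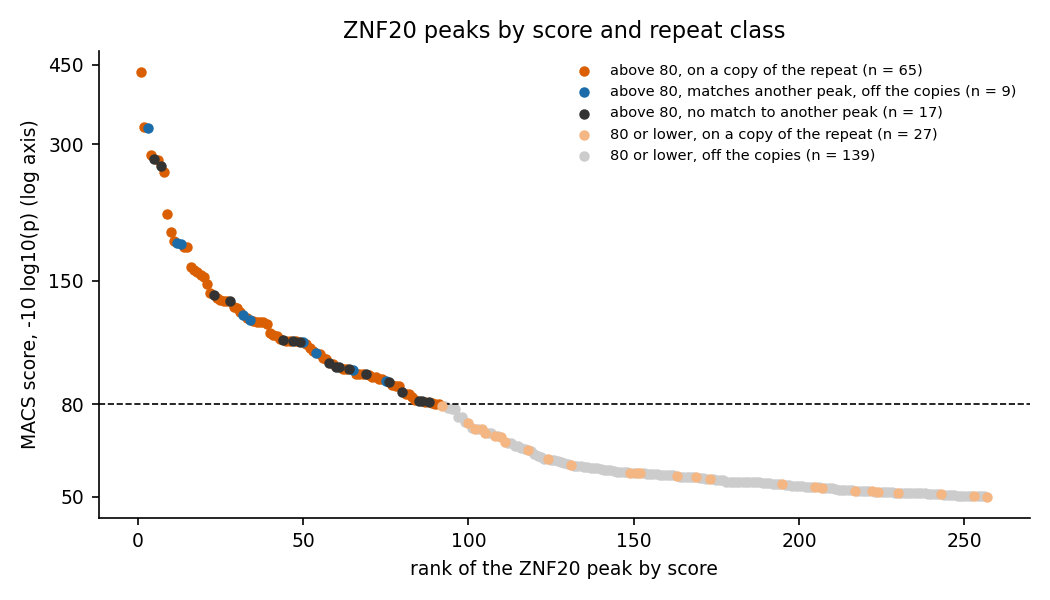
Scores of the 257 deposited ZNF20 peaks on a log axis, ranked, with the threshold of 80 dashed. Peaks on a copy of the repeat (65 above 80 and 27 at or below it) are found over the whole range, while the 17 peaks without a match to another ZNF20 peak are mostly between 80 and 150.

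The peak centres fell on a narrow part of the unit. For 56 of the 65 peaks above 80 on a copy, the centre could be placed on the unit, at a median position of 410 (quartiles 392 and 436, range 343 to 517). Of these 56 centres, 49 lay between positions 350 and 450. The 24 deposited peaks with a score of 50 to 80 that could be placed had a median of 405 (quartiles 389 and 418), and were not used to define the unit. The stretch of 60 bp that most other ZNF20 peaks cover, positions 400 to 459, lay a median of 20 bp from the peak centre (59 peaks). Genome copies were not limited to this part, with over 400 matches at most of the other positions.

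**Figure D2:**
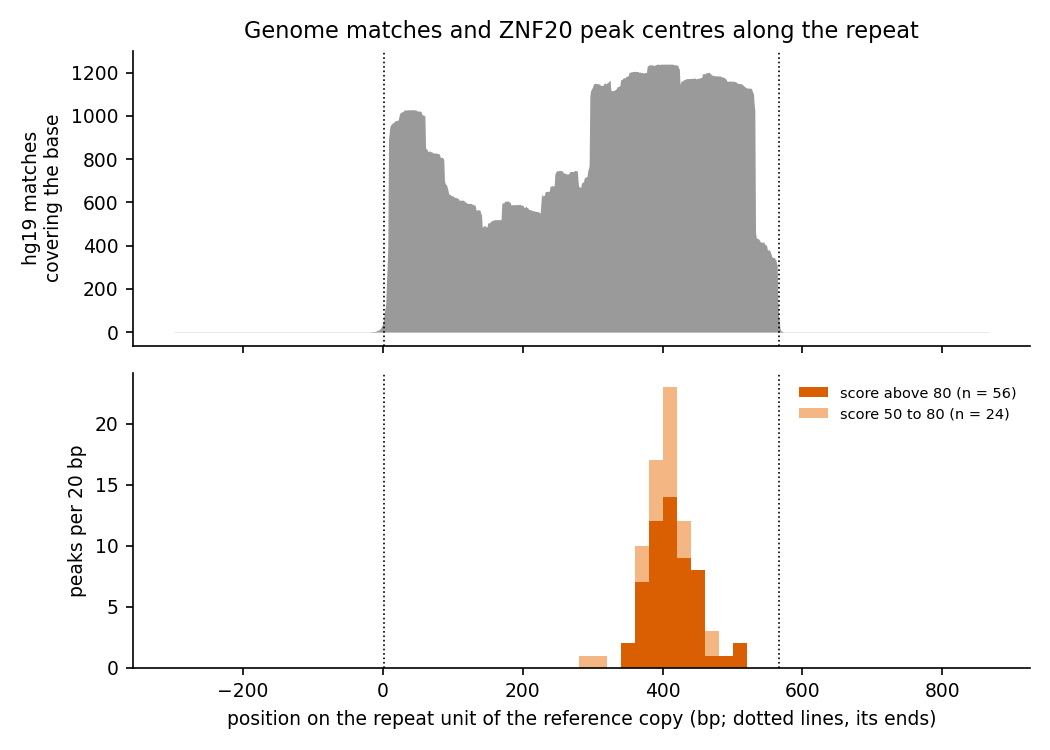
Top, number of hg19 matches covering each base of the extended reference copy. Bottom, peak centres per 20 bp of the unit, stacked for scores above 80 (n = 56) and of 50 to 80 (n = 24), which gather around position 410, while genome matches cover the unit from end to end.

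Few of the copies had a peak. Of 1286 copies found with the reference peak, 65 had a ZNF20 peak above 80, 27 had only a deposited peak of 50 to 80 and 1194 had none. Median identity to the reference was 76.5% in copies with a peak above 80 (quartiles 73.9 and 78.8%), 77.0% with a peak of 50 to 80 only (75.5 and 79.2%) and 74.0% without a peak (70.8 and 76.9%). The quartile ranges overlapped, and the difference in median turned negative when another peak served as reference, as given in the closing section. Median match length was 246 bp with a peak above 80 and 240 bp without. With the longer unit of 567 bp as the query, it was 315 bp (quartiles 217 and 436 bp) and 240 bp (196 and 333 bp). Among the 65 peaks, the score showed a Spearman rho of 0.00789 with the identity and 0.248 with the match length, as a description across copies of 1 library. It showed a rho of 0.565 with the peak width, 2 values that come from the same reads.

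Bases at some positions differed in frequency between copies with a peak and copies without. With the unit of 567 bp as the query, 1607 regions were found, 68 with a peak above 80, 28 with only a peak of 50 to 80 and 1511 with none. Positions were ranked where at least 80% of the copies with a peak above 80 cover them. In addition, a base and not a gap had to be most frequent in these copies. At the 126 such positions, the share of these copies with this base was set against the share of copies without a peak. The share with a peak above 80 minus the share without a peak had a median of 1.36 percentage points. This is a median of signed differences, which reached down to -19.7 points, and not the typical size of a difference. The 126 ranked positions lay between 373 and 505 of the unit. At 5 of these positions the difference exceeded 30 points, and they were picked for it. Positions covered by fewer copies were not ranked, and differences over 30 points also occurred there, such as 43.9 points at position 554 (31 of 32 copies with a peak above 80 and 167 of 315 without a peak) and 42.5 points at 282 (28 of 39 and 167 of 571). In the first part of the unit, position 97 differed by 41.7 points (14 of 22 and 116 of 530). Large differences were thus not limited to the ranked part. The most different of the 5 was T411C, where the reference base comes first and the base most frequent without a peak last. The reference base was found in 51 of 62 copies with a peak above 80 (82.3%, 70.5 to 90.8%) and in 250 of 1132 copies without a peak (22.1%, 19.7 to 24.6%). Next was A398G, with the reference base in 55 of 62 (88.7%, 78.1 to 95.3%) and 391 of 1132 copies (34.5%, 31.8 to 37.4%). Positions 375 and 380 had the same most frequent base in both classes, held by 80.7 and 86.9% of the copies with a peak and by 44.8 and 53.5% of those without. For G453C the shares were 57.6 and 24.8%.

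Copies with only a peak of 50 to 80, which the choice of positions did not use, held the reference base at 411 in 22 of 26 cases (84.6%, 65.1 to 95.6%). At 398 the count was also 22 of 26. At positions 375, 380 and 453 they held the base in 82.6, 96.2 and 63.0% of cases. At all 5 positions these shares lay nearer to those of the copies with a peak above 80 than to those without a peak. They come from the same library and are not a replicate.

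**Figure D3:**
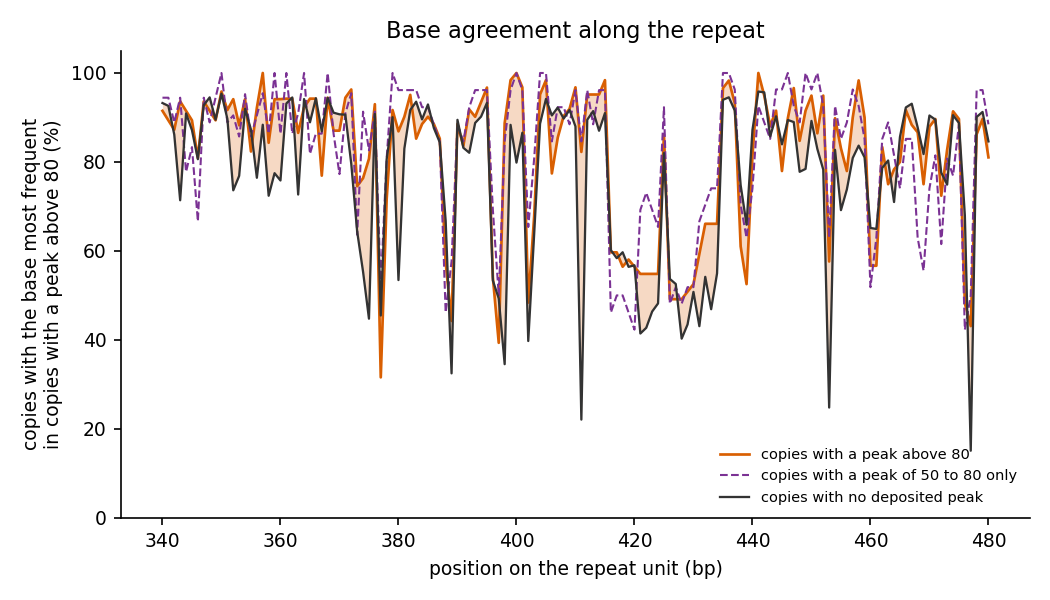
Share of copies that hold, at each position from 340 to 480 of the unit, the base most frequent in copies with a ZNF20 peak above 80. The lines for copies with a peak above 80 and with a peak of 50 to 80 stay high at positions 398 and 411, where the line for copies without a peak falls to 34.5 and 22.1%.

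Copies were then grouped by the reference bases at positions 398 and 411. Of 259 copies with both, 47 had a peak above 80 (18.1%, 13.6 to 23.4%) and 66 had any deposited peak (25.5%, 20.3 to 31.2%). Of 688 copies with neither, 3 had a peak above 80 (0.436%, 0.0900 to 1.27%) and 4 any deposited peak (0.581%, 0.159 to 1.48%). Copies with the reference base at 398 alone had a deposited peak in 11 of 208 cases (5.29%, 2.67 to 9.27%), and those with the one at 411 alone in 7 of 64 (10.9%, 4.51 to 21.2%). The interval for both bases did not overlap those for 398 alone or neither, and overlapped narrowly with that for 411 alone. With the copies that have a peak above 80 left out, a peak of 50 to 80 was found on 19 of 212 copies with both bases (8.96%, 5.48 to 13.6%) and on 1 of 685 with neither (0.146%, 0.00370 to 0.811%). It was found on 3 of 200 with the reference base at 398 alone (1.5%, 0.310 to 4.32%) and on 3 of 60 with the one at 411 alone (5%, 1.04 to 13.9%), and the interval for 411 alone overlapped that for both. The grouping uses positions picked by comparing copies with a peak above 80 and copies without a peak, so the shares are a description. Only the peaks of 50 to 80 were outside that choice. The copies without a peak, which make up most of each group, were part of it. The groups differed in identity and length too. Median identity was 75.05% and median length 321 bp in copies with both bases, against 72.3% and 240.5 bp with neither. With 398 alone they were 72.5% and 250 bp, and with 411 alone 75.4% and 250 bp. Peak shares at equal identity and length were not tested. A further 388 copies, 8 with a deposited peak, were not aligned at these positions and not grouped. The 193 copies with both bases and no deposited peak had a median identity of 74.8% and a median length of 321 bp, against 75.5% and 339 bp for the 47 with a peak above 80.

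**Figure D4:**
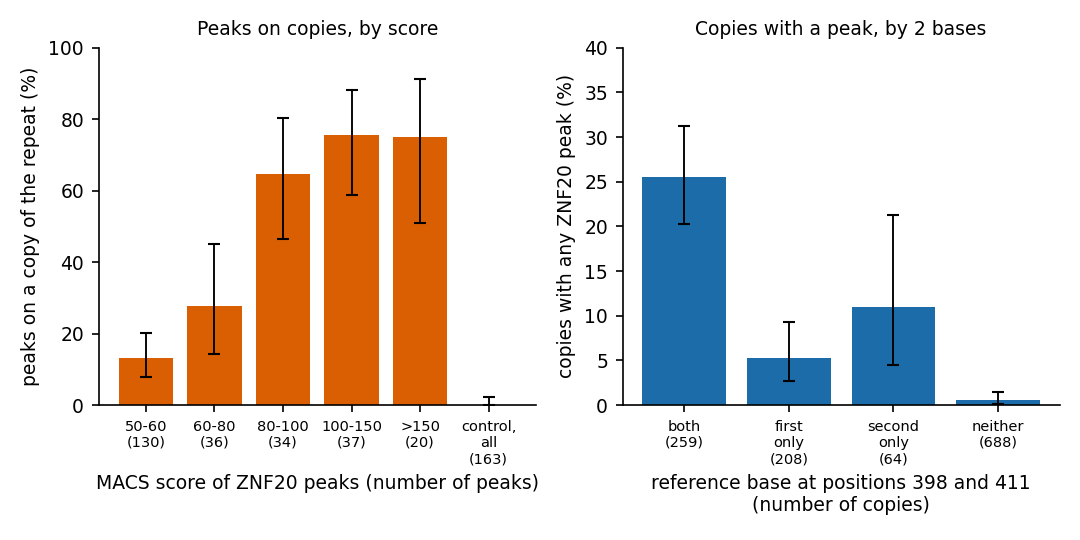
Left, share of ZNF20 peaks on a copy of the repeat by score class, beside all control peaks at 0. Right, share of copies with any deposited ZNF20 peak by the reference bases at positions 398 (first) and 411 (second), 25.5% with both and 0.581% with neither. Bars show percentages, whiskers exact 95% intervals, and numbers in brackets the peaks or copies counted.

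The stretch from position 370 to 416 is printed for the 6 highest-scoring peaks whose copies align there without a gap, named by the host or nearest protein-coding gene. It is written in the direction of the reference, with positions 398 and 411 in capitals.
PTPN13, chr4:87736950-87736996, minus strand, score 433.5: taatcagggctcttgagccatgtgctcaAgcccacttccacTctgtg
ZBTB8OS, chr1:33084603-33084649, plus strand, score 276.71: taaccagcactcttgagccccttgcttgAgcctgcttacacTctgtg
SLITRK5, chr13:87434887-87434933, minus strand, score 178.05: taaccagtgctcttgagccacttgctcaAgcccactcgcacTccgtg
SCN8A, chr12:51973248-51973294, minus strand, score 153.19: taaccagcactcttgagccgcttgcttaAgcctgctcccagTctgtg
DSC3, chr18:28238652-28238698, minus strand, score 135.99: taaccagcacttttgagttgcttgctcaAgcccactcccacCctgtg
SLC16A7, chr12:60493450-60493496, minus strand, score 135.32: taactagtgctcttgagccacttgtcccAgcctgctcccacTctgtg
Both bases were those of the reference in 5 of these 6 copies, and the copy nearest to DSC3 had only the one at 398.

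For comparison, copies without a deposited peak are given, ranked by the bit score of their blastn alignment to the unit, which grows with length as well as identity. The 3 highest of any kind come first, then the 3 highest with neither base.
ATXN3L, chrX:13277248-13277294, plus strand: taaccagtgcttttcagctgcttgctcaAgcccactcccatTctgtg
FAT3, chr11:91527304-91527350, minus strand: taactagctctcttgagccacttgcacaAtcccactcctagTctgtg
C12orf40, chr12:40246768-40246814, plus strand: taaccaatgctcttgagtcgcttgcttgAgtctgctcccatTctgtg
NWD2, chr4:37159742-37159788, plus strand: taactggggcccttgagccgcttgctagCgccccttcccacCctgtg
KIF21A, chr12:39531135-39531181, minus strand: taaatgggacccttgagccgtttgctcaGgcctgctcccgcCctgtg
SPP2, chr2:235152631-235152677, minus strand: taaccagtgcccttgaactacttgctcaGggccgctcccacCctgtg
The first 3 held both reference bases and still had no deposited peak, so that the 2 bases did not separate every copy.

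A pattern of letters was read from positions 398 to 411 of the reference, keeping each letter held by at least 70% of the copies with a peak above 80. It is AGCCNNCTCCCACT, with 12 fixed letters, and was searched on both strands in the 300 bases around each peak centre. It was present without a difference in 28 of the 91 ZNF20 peaks above 80 (30.8%, 21.5 to 41.3%) and in 10 of 166 with a score of 50 to 80 (6.02%, 2.93 to 10.8%). It was found in 0 of 163 control peaks, in 3 of 31626 peaks above 80 of the other KZFPs (0.0095%) and in 11 of 35116 RefSeq promoter sequences of 300 bases from GRCh38 (0.0313%). With up to 1 difference the counts were 51 of 91 (56.0%, 45.2 to 66.4%), against 0.661% of the other KZFPs' peaks and 0.419% of promoters. With up to 2 differences the pattern was in 62 of the 65 ZNF20 peaks on a copy (95.4%, 87.1 to 99%), and within 50 bp of the centre in 56 of them. Promoters then reached 6.66% and the other KZFPs' peaks 3.25%. The pattern was made from these peaks, so their counts describe it and do not test it. It is also a piece of the repeat, on which control peaks and the other KZFPs' peaks rarely or never lay. Low counts in those peaks follow in part from that. The share of copies without a peak that hold the pattern is not given here.

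The pattern also occurred at peaks that no match of at least 100 bp linked to the reference. Of the 91 peaks, 26 had no such match, and 9 of these matched another ZNF20 peak. Of these 9, 7 belonged through other peaks to the same group of 72 matched peaks, so they are not shown to lie outside the repeat. Among the 26, 4 peaks in introns held the pattern without a difference. Among these 4 were peaks in PHF20, a reader of histone methylation, and in KLHL8, a substrate adaptor of a ubiquitin ligase. A further 2 had 1 difference in the fixed letters, in introns of MGAT4A, which encodes an N-acetylglucosaminyltransferase, and of WDR48, a cofactor of deubiquitinases. The PHF20, KLHL8, MGAT4A and WDR48 peaks are printed with 28 bases on each side of the pattern, which is in capitals.
PHF20, chr20:34431961-34432030, minus strand, score 181.19: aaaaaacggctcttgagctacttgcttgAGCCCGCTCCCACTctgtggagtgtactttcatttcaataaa
KLHL8, chr4:88110741-88110810, plus strand, score 109.81: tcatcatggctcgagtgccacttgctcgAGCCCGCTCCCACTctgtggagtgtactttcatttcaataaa
MGAT4A, chr2:99290840-99290909, plus strand, score 325.24: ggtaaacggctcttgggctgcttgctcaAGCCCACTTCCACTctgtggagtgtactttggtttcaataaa
WDR48, chr3:39116932-39117001, minus strand, score 85.25: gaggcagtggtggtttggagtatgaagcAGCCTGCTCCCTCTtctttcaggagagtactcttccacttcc
In the PHF20, KLHL8 and MGAT4A peaks the pattern is followed by ctgtggagtgtac, as in the reference, so their likeness to the repeat goes beyond the pattern. At WDR48 it is not. The WDR48 peak had no match to another ZNF20 peak. The 17 peaks without a match held the pattern in 0 cases without a difference (upper limit 19.5%) and in 3 cases with up to 2 differences (17.6%, 3.80 to 43.4%).

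The 10 highest-scoring peaks held 7 on a copy of the repeat. The highest, at chr4:87736691-87737401 with a score of 433.5, lay 367 bp from PTPN13, a protein tyrosine phosphatase, and within 10 kb of SLC10A6, a transporter of sulfated steroids. The peak at chr11:64302815-64303329 (score 328.44) lay 19833 bp from SLC22A11, an organic anion transporter, and matched only 5 other peaks. Further peaks on a copy lay in introns of STXBP4, of ZBTB8OS (score 276.71), a cofactor of tRNA ligation, and of CACNA2D1 (score 192.19), a calcium channel subunit. Those at scores of 260.27 and 210.78 lay 9294 bp from TBC1D4, a Rab GTPase-activating protein, and 1336709 bp from SPRY2, an inhibitor of receptor tyrosine kinase signalling. The MGAT4A intron peak matched 1 other peak. The other 2 of the 10 had no match, at SEC14L2 and near HGSNAT, and are described with the unmatched peaks.

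ZNF20 peaks above 80 lay inside a protein-coding gene in 42 of 91 cases (46.2%, 35.6 to 56.9%), each in a different gene. In the HEK293T control, 66 of 163 deposited peaks did (40.5%, 32.9 to 48.4%), a share within the ZNF20 interval. The ZNF20 peaks overlapped a coding exon in 2 cases, a UTR in 4 and lay within introns in 36, and 37 lay outside any annotated gene. The 49 peaks outside protein-coding genes lay a median of 39284 bp from the nearest one, from 35 bp at ZNF546, itself a C2H2 zinc finger gene (chr19:40489617-40490006, score 87.67), up to the peak nearest to SPRY2. Copies with a peak above 80 were inside a protein-coding gene in 25 of 65 cases (38.5%, 26.7 to 51.4%), and copies without a deposited peak in 346 of 1194 (29.0%, 26.4 to 31.6%). The interval for copies with a peak contained the share without one. Within 2500 bp of a transcription start site (TSS), the shares were 13.8% (6.53 to 24.7%) and 17.8% (15.7 to 20.1%).

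Copies with a peak lay on the strand opposite to their single protein-coding host gene in 16 of 22 cases (72.7%, 49.8 to 89.3%), taking the direction of the reference copy as plus. Copies without a peak did so in 244 of 326 cases (74.8%, 69.8 to 79.5%). The direction in which the repeat itself is transcribed was not determined. A second region of the repeat on the same strand within 10 kb was found for 4 of the 68 unit regions with a peak above 80 (5.88%, 1.63 to 14.4%) and for 187 of 1511 without one (12.4%, 10.8 to 14.1%). In 0 of the 4 pairs did the partner have a peak above 80 too.

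Of the 74 peaks with a match, 3 lay within 2500 bp of the TSS of a protein-coding transcript (4.05%, 0.844 to 11.4%). They were in introns of TRAPPC3, a vesicle-tethering subunit (chr1:36612233-36612832, score 181.39), of FAM107A, an actin-associated protein (chr3:58570409-58570760, score 80.21), and 668 bp from the TSS of SRP19, a subunit of the signal recognition particle (chr5:112197697-112197978, score 81.04). Of the 17 peaks without a match, 6 lay this close to such a TSS (35.3%, 14.2 to 61.7%). None of the 74 matched peaks overlapped a coding exon or a UTR (upper limit 4.86%), while 6 of the 17 unmatched ones did. These classes differ in sequence by construction and come from 1 library, so their TSS and exon shares are a description and not a test.

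**Figure D5:**
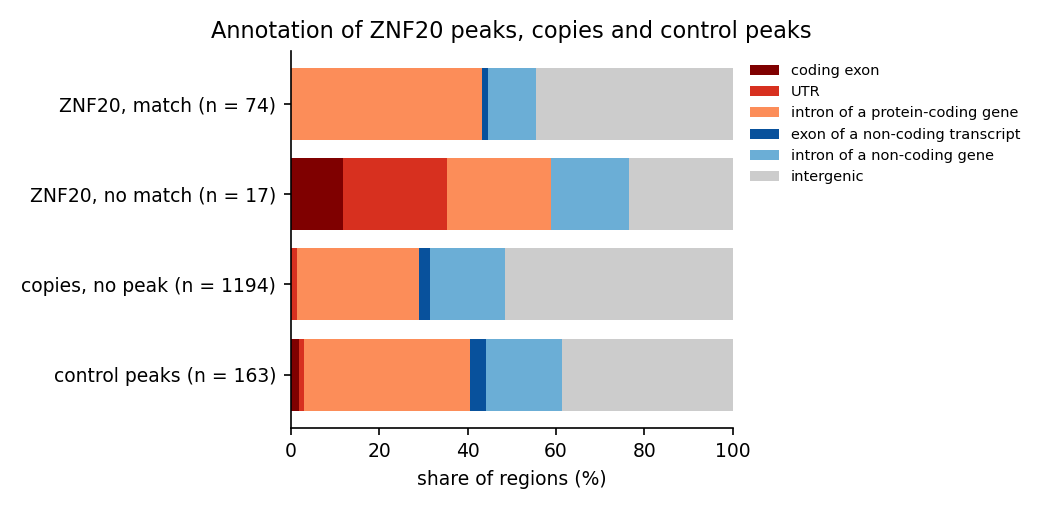
Share of regions by annotation class, counting a coding exon before a UTR and either before an intron. ZNF20 peaks without a match (n = 17) overlap coding exons in 11.8% and UTRs in 23.5%, classes at 0 among the peaks with a match (n = 74) and at 1.84 and 1.23% among control peaks.

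The 6 unmatched peaks at promoters were rich in CpG. They lay at the start of CHD2, a chromatin remodeller (chr15:93447163-93447745, score 139.32), and close to the starts of SKP2, the F-box protein through which the SCF ubiquitin ligase recognises p27, and LMBRD2 (chr5:36152030-36152344, score 135.12). Others were at COQ8B, a gene of coenzyme Q synthesis, and ITPKC, an inositol trisphosphate kinase (chr19:41222665-41223123, score 110.51), and 137 bp from the TSS of GINS4, a subunit of the replicative helicase (chr8:41386264-41386603, score 110.68). The remaining ones overlapped a UTR of SEC14L2, a lipid-binding protein, with a TSS of MTFP1 and of RNF215 within 2500 bp (chr22:30819907-30820352, score 268.16), and lay 1155 bp from BAHCC1 (chr17:79367734-79368102, score 98.81). Their GC content was 56.4 to 70.2% and their CpG density 6.50 to 10.0 per 100 bp, against medians of 44.7% and 0.519 in the other 11 unmatched peaks and of 42.6% and 0.727 in the matched peaks. At CHD2 a peak above 80 of ZNF251 overlapped, and at SEC14L2 a deposited ZNF251 peak.

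The other 11 unmatched peaks were of several kinds. The RELA gene, which encodes the p65 subunit of NF-κB, had a peak on a UTR (chr11:65421301-65421691, score 81.03), and POTEH, of a family of near-identical copies, had one on a coding exon (chr22:16266969-16267094, score 93.09), where reads can come from its paralogs. The widest peak, of 4687 bp at chr8:43092684-43097370 with a score of 278.73, had a GC content of 22% and lay 34686 bp from HGSNAT, a lysosomal acetyltransferase. It overlapped a peak above 80 of ZFP28 and of ZNF746 and was the only member on a control peak. It was also within 1 Mb of an assembly gap, as were 4 of the 17 unmatched peaks (23.5%, 6.81 to 49.9%) and 4 of the 74 matched ones (5.41%, 1.49 to 13.3%). A deposited peak of another KZFP overlapped 5 of the 17 unmatched peaks (29.4%, 10.3 to 56.0%) and 0 of the 74 matched ones (upper limit 4.86%). The part of reads from paralogs, of nearby gaps and of regions shared between libraries in these peaks was not tested.

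Genes were also counted by lists. Of 20162 protein-coding genes, 71 had a ZNF20 peak above 80 inside them or within 10 kb (0.352%). Of 568 C2H2 zinc finger genes 1 had one, ZNF546 (0.176%), and of 373 solute carrier genes 1, SLC10A6 (0.268%). None of 20 cyclins, cyclin-dependent kinases and their inhibitors, of 17 genes of KAP1 and heterochromatin, among them TRIM28 and SETDB1, and of 49 interferon-response genes had one. At the share over all genes, each of the last 3 lists would hold less than 1 gene, so these counts of 0 carry little information.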

How the data were processed

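ChIP-seq and ChIP-exo peak lists of HEK293T cells expressing HA-tagged KZFPs were used. Reads were aligned by the authors to hg19 using Bowtie2, and peaks were called with MACS, ChIP-seq libraries against a total input. The submitters' processing notes give Bowtie2 2.2.1 and MACS 1.4, and the methods a later Bowtie2 and a filter on mapping quality, which removes reads that fit several copies of a repeat. The name of the ZNF20 list points to the total input of ZNF746 cells as its control, on which its scores depend. The deposited value of a peak is its MACS score, minus log10 of the p-value times 10, which depends on depth, and served here to order and select peaks of 1 list. Lists start at a score of 50, and peaks above 80 were kept as in the methods. Samples were grouped by the labels, with 1 library each.

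Peak sequences came from GRCh37, the build of the lists, and were compared with blastn 2.17.0 (at least 100 bp, E value below 1e-05). Genes and TSS were those of GENCODE release 44 on hg19 (254376 transcripts), and assembly gaps were unsequenced runs of 50 kb or more. A peak's host gene held its midpoint. Named peaks were the 10 highest, those within 2500 bp of a protein-coding TSS or on a protein-coding exon, the 5 highest without a match, the 3 with most matches and those at listed genes. Peaks in PHF20, KLHL8 and WDR48 and the copies printed were named after their sequences were seen, and some peak sequences are not reported here. The members and gene lists were chosen with earlier results of these data known. The repeat unit, the base comparison and the pattern were defined after seeing the data. The base comparison was tested on simulated copies, which checks the calculation and not the choice of positions in these data. Promoter sequences were from RefSeq (GRCh38.p14). Total input libraries were not used here.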

Additional observations from a re-analysis of the deposited data

Results flagged for a closer look

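ZNF20 peaks with a score of 50 to 80, which the main set leaves out, lay on a copy of the repeat in 27 of 166 cases (16.3%, exact 95% interval 11.0 to 22.8%), while 0 of 163 deposited peaks of the HEK293T control did (upper limit 2.24%). This was singled out because the signal lies below the score threshold and is absent from the control list. The pattern with up to 1 difference was present in 20 of these 27 peaks (74.1%, 53.7 to 88.9%) and in 3 of the 139 other peaks of 50 to 80 (2.16%, 0.447 to 6.18%). The pattern is a piece of the repeat, so this contrast follows in part from the split into peaks on and off a copy. With 1 library there is no replicate check.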

How the results depend on the processing

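The number of ZNF20 peaks went from 91 to 257 with all deposited peaks, to 57 with a score above 100 and to 20 above 150. Leaving out peaks on control peaks, shared with another KZFP or within 1 Mb of an assembly gap gave 90, 88 and 83. The share of peaks with a match was 81.3%, 67.0% with matches of at least 200 bp and 47.1% with all deposited peaks. The share inside a protein-coding gene was 60% above a score of 150, and 59.3% for genes of any type. The share near a TSS was 20.9% at 2500 bp, 12.1% at 1000 bp, 31.9% at 5000 bp and 9.89% for protein-coding transcripts. Of the 163 deposited control peaks, 19.0% (13.3 to 25.9%) lay within 2500 bp of a TSS and 6.13% this close to a protein-coding one. The share of copies with a peak was 5.05%, and 7.15% with all deposited peaks. With the second-ranked peak as the reference, 897691 regions matched, since that peak also holds a more abundant repeat, and the share fell to 0.0078%. The difference in median identity, here between copies with a peak above 80 and all other copies, reversed from 2.31 to -4.69 percentage points. Limited to the part of the second-ranked peak that aligns to the first, an alternative chosen after seeing the data, the values were 4.34% and 0.796 points. The strand of intragenic copies and the distance of the shared stretch from the centre stayed within the interval or quartiles of their main values under every alternative run. No paired analysis was possible because each group has 1 library. The lists give no read numbers, so weaker binding at copies without a peak could not be measured.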
